A study of Mus musculus with 6 samples.

Results

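The *Zic* genes encode zinc finger transcription factors of the same family as the Gli factors, the nuclear effectors of Sonic hedgehog signaling. Binding of Gli3 around 4 of them, *Zic1*, *Zic4*, *Zic2* and *Zic5*, was examined in the embryonic mouse cortex. The genes lie in neighboring pairs on opposite strands. *Zic1* and *Zic4* were therefore treated as a shared locus on chromosome 9, and *Zic2* and *Zic5* as a shared locus on chromosome 14. A Gli3 site counted toward a locus if its midpoint fell within 200 kb of the gene-level transcription start site (TSS) of either gene. Of the 4114 Gli3 sites of the list, 1 met this rule at the *Zic2*/*Zic5* locus and 0 at the *Zic1*/*Zic4* locus.

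The sites come from chromatin immunoprecipitation followed by sequencing (ChIP-seq) with a Gli3 antibody, on wild-type cerebral cortex dissected at embryonic day 15. There were 3 Gli3 ChIP libraries and 3 libraries of input DNA, the control made from chromatin without the antibody step. The replicates were joined by the authors in 1 list of positions without heights, scores or p-values. No value per replicate, no error between embryos and no read depth can therefore be given, and a gene without a listed site is only a gene without a peak in the deposited list. The list holds fewer sites than the study states, and the difference could not be resolved here. A list of positions holds no expression values, so the cell types of the dissected tissue could not be checked against markers.

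Gli3 acts mainly as a repressor in the dorsal telencephalon, where hedgehog signaling is low, and hedgehog signaling prevents its processing into that repressor. The Zic proteins share with the Gli proteins a stretch of C2H2 zinc fingers, and in cell assays they can bind sequences related to the Gli binding sequence. *Zic1* and *Zic4* are known for their roles in the cerebellum and the dorsal midline. *Zic2* is required for neural tube closure and for division of the forebrain into hemispheres, and loss of its human counterpart causes holoprosencephaly. *Zic5* takes part in neural tube and neural crest development.

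The sequence given first is the center of the only site assigned to a *Zic* gene. The center is the middle of the listed region, because the list gives no position of strongest binding within a site. Its middle 200 bp, chr14:122367385-122367584 in mm10, are given on the plus strand, and the capitals mark a copy of the GLI core with 1 mismatch. The GLI core is GACCACCCA, the most conserved bases of the sequence that Gli factors recognise.

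Site center: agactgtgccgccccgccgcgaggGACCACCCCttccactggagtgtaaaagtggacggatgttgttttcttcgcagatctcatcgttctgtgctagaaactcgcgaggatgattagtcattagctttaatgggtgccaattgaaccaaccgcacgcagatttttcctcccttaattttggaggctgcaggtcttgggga

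The exact GLI cores of the 400 kb around the *Zic* genes are shown next, because none of them was inside a Gli3 site. They are written 5′ to 3′ on the strand of the core with 10 bases on either side, and the capitals mark the core.
Zic2/Zic5, chr14:122365036-122365044: gtatgcccatGACCACCCAtactccaatt
Zic1/Zic4, chr9:91184136-91184144: tacaaactgtGACCACCCAtcaaaatatt
Zic1/Zic4, chr9:91202750-91202758: caacaggccaGACCACCCAgtgctcccaa
Zic1/Zic4, chr9:91319685-91319693: tggctggctgGACCACCCAgagctcccag
Zic1/Zic4, chr9:91536023-91536031: tcaccgacaaGACCACCCAagtttcatct
Zic1/Zic4, chr9:91552377-91552385: cagttaactgGACCACCCAgagttcccag

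*Zic2* (ENSMUSG00000061524.8) lies on the plus strand of chromosome 14 from 122475435 to 122479852, and *Zic5* (ENSMUSG00000041703.7) on the minus strand from 122456795 to 122465677. Their TSSs are 9.76 kb apart and point away from each other. The site assigned to them spanned chr14:122365692-122369277 and was 3586 bp wide. Its midpoint was 108 kb upstream of the *Zic2* TSS and 98.2 kb downstream of the *Zic5* TSS, beyond the end of *Zic5*. The gap between this site and the next one, from 122369278 to 122885678, contained both *Zic* genes and held no exact GLI core.

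The site lay inside *Clybl*, which encodes a citrate lyase-like enzyme of mitochondria. The midpoint was in an intron of *Clybl* and also in an intron of *Gm5089*, an antisense noncoding gene on the minus strand. The site overlapped 2 exons of *Gm5089*, from 122365239 to 122366055 and from 122368312 to 122368454, and no exon of *Clybl*. In the RefSeq annotation of the same assembly *Gm5089* is a single long noncoding RNA gene from 122365679 to 122451146. This gene starts 5.65 kb from the end of *Zic5*, and its 3′ end lies just outside the edge of the site. The nearest TSS of any gene was that of the small nuclear RNA gene *Gm25464*, 20.7 kb away. A second gene model of the name *Gm5089*, annotated as protein-coding from 122434854 to 122451115, had the nearest protein-coding TSS at 83.6 kb. The *Zic5* TSS was thus not the closest start to this site, and the assignment to *Zic* rests on distance alone.

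The site was not at a promoter, as its midpoint was more than 2 kb from the TSS of any annotated transcript, whereas 45.5% of all Gli3 sites were at promoters. Its width was above the 75th percentile of all sites (2926 bp, with a median of 1989 bp). Its GC content was 43.0%, below the 25th percentile of nonpromoter sites (45.1%, with a median of 48.6%). It held 50 CpG dinucleotides, 13.9 per kb, and 15.9% of it was repeat-masked against a median of 12.4% over all sites.

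The site held no exact GLI core, as was the case for most sites of the list. The core was present in 12.2% of the 4099 sites on assembled chromosomes, and in 15.4% of the 617 that were at least as wide as this one. With 1 mismatch allowed the site held 3 matches, and 64.7% of all sites held at least 1. A wider site has more room for such matches, and no share among sites of similar width is given for them. Substitutions are given as the base of the core, its position counted from 1 at the 5′ end of GACCACCCA, and the base of the site. The match nearest to the center, from 122367409 to 122367417 on the plus strand, had the substitution A9C and was 71 bp from the midpoint. A match of this kind in the central 200 bp was found in 12.7% of sites. The matches with C7T and A2T, both on the minus strand, were 944 bp and 645 bp from the midpoint.

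The nearest exact core lay just outside. It started at 122365036 in an intron of *Clybl*, 647 bp from the edge of the site, 110.4 kb upstream of the *Zic2* TSS. Of the regions of the same length that began 1 site length away on either side, neither held an exact core. The left one held 2 matches with up to 1 mismatch and the right one 0.

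**Figure D1:**
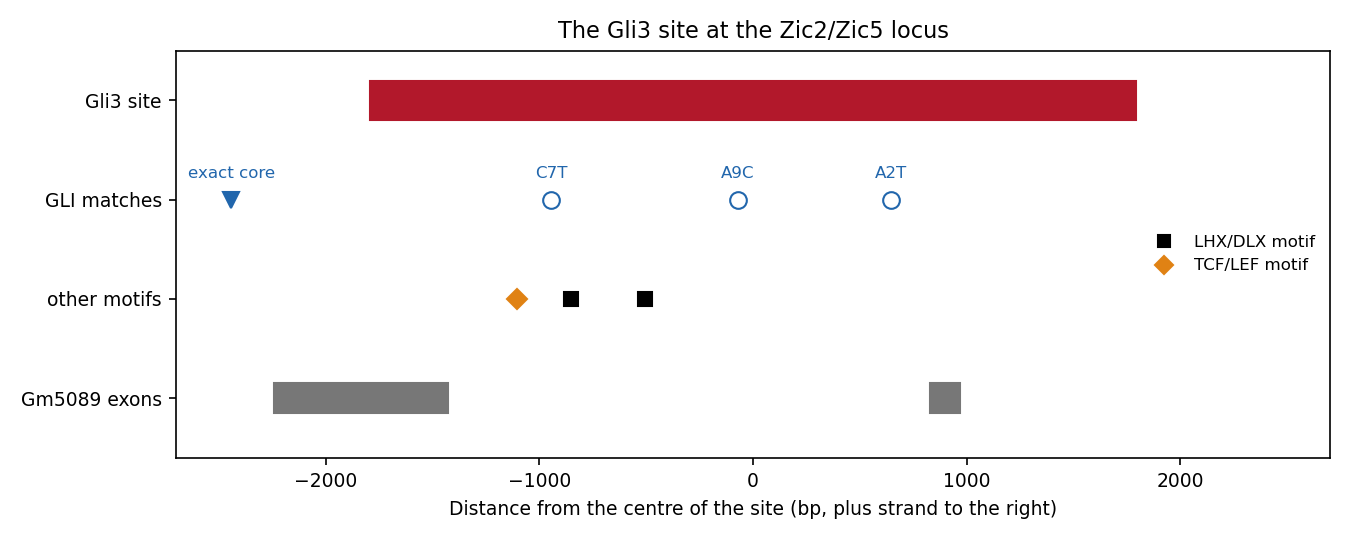
The Gli3 site of the Zic2/Zic5 locus drawn to scale, with the distance from its center in bp on the x axis and each kind of feature in a row of its own. Open circles are GLI matches with 1 mismatch, labelled with their substitution, and the filled triangle is the exact core 647 bp beyond the left edge, while the A9C match is 71 bp from the center.

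Short motifs of other factor families were counted in the site on both strands. The ZIC motif CCTGCTGNG, the sequence preferred by Zic proteins themselves, was absent from it, and so was its shorter form CCTGCTG. The longer form was present in 22.0% of all sites. The homeodomain motif TAATTA, bound by LHX and DLX factors among others, occurred 2 times, 851 bp and 506 bp from the midpoint, and was present in 38.2% of all sites. The TCF and LEF motif CTTTGAT, of the nuclear effectors of Wnt signaling, occurred 1 time at 1103 bp from the midpoint and was present in 25.7% of sites. The shares for these motifs are over sites of all widths, and this site was wider than most.

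The other motifs searched had no match in the site. They were the bHLH motif CAGCTG (in 68.6% of all sites), the SP motif GGGCGGGG (33.8%), the SOX motif ACAATGG (22.7%), the POU motif ATGCAAAT (11.8%), and the NFI motif, TTGGC and GCCAA with 5 bases between them (0.439%). None of these motifs contains the GLI core, and the shorter ZIC motif is contained in the longer one.

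Beyond 200 kb, the next site on the *Clybl* side was 251.3 kb from the *Zic5* TSS and 261 kb from the *Zic2* TSS. It spanned chr14:122212531-122216243, also inside an intron of *Clybl*, and was of similar width, 3713 bp. Unlike the nearer site it held an exact GLI core, from 122214250 to 122214258 on the minus strand and 133 bp from its midpoint, in the following sequence.
Second Clybl site: ctttcacacaGACCACCCAcaaccatgga

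Within 500 kb there were 6 sites at the *Zic2*/*Zic5* locus, and 12.2% of protein-coding genes had at least 6 within that distance. The other 4 were at the promoter of *Tm9sf2*, at an annotated transcript start inside *Pcca* and *Ggact*, and in introns of *Ggact* and *Tmtc4*. *Pcca* encodes a subunit of the mitochondrial propionyl-CoA carboxylase. None of these 4 held an exact GLI core, and the 3 sites on the side of *Zic2* were each more than 400 kb from its TSS. At least 1 site within 500 kb was found for 75.6% of protein-coding genes.

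*Zic1* (ENSMUSG00000032368.14) is read from the minus strand of chromosome 9 between 91358058 and 91365810, and *Zic4* (ENSMUSG00000036972.14) on the plus strand from 91362413 to 91389348. Their gene-level TSSs are 3.40 kb apart, and their 5′ ends overlap. No Gli3 site was within 200 kb of either gene. The nearest one, chr9:91818757-91819553, was 453 kb upstream of the *Zic1* TSS and 457 kb downstream of the *Zic4* TSS. It was 797 bp wide, narrower than most sites, lay in intergenic sequence, and held neither a GLI core nor a match with 1 mismatch. It held 1 TAATTA, 1 CTTTGAT and 1 GGGCGGGG.

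In the other direction the nearest site was still farther away, so that *Zic1* and *Zic4* lay in an interval of 3.38 Mb without any listed site, from 88439827 to 91818756. Over the genome, 3.54% of the 4091 intervals between neighboring sites were wider, and the median interval was 223 kb. The TSSs of 22 protein-coding genes lay in the interval. It held 36 exact GLI cores.

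The 5 exact cores within 200 kb of *Zic1* were in intergenic sequence or in an intron of *Gm29478*, a noncoding RNA gene. The nearest to a gene of the pair was 46.1 kb downstream of the *Zic1* TSS and 42.7 kb upstream of the *Zic4* TSS. In the soft-masked genome 3 of the 5 were inside masked repeats, those starting at 91202750, 91319685 and 91552377, and 2 were not. The single core of the *Zic2*/*Zic5* window was not masked. Over all assembled chromosomes 3.19% of the 18532 exact cores were inside a Gli3 site, with 4.13% of those outside masked repeats and 0.245% of those within them. Reads from repeats had been filtered by the authors, and the part of that filter in the last value was not tested. An exact core without a listed site was thus the usual case, at the *Zic* genes and elsewhere.

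**Figure D2:**
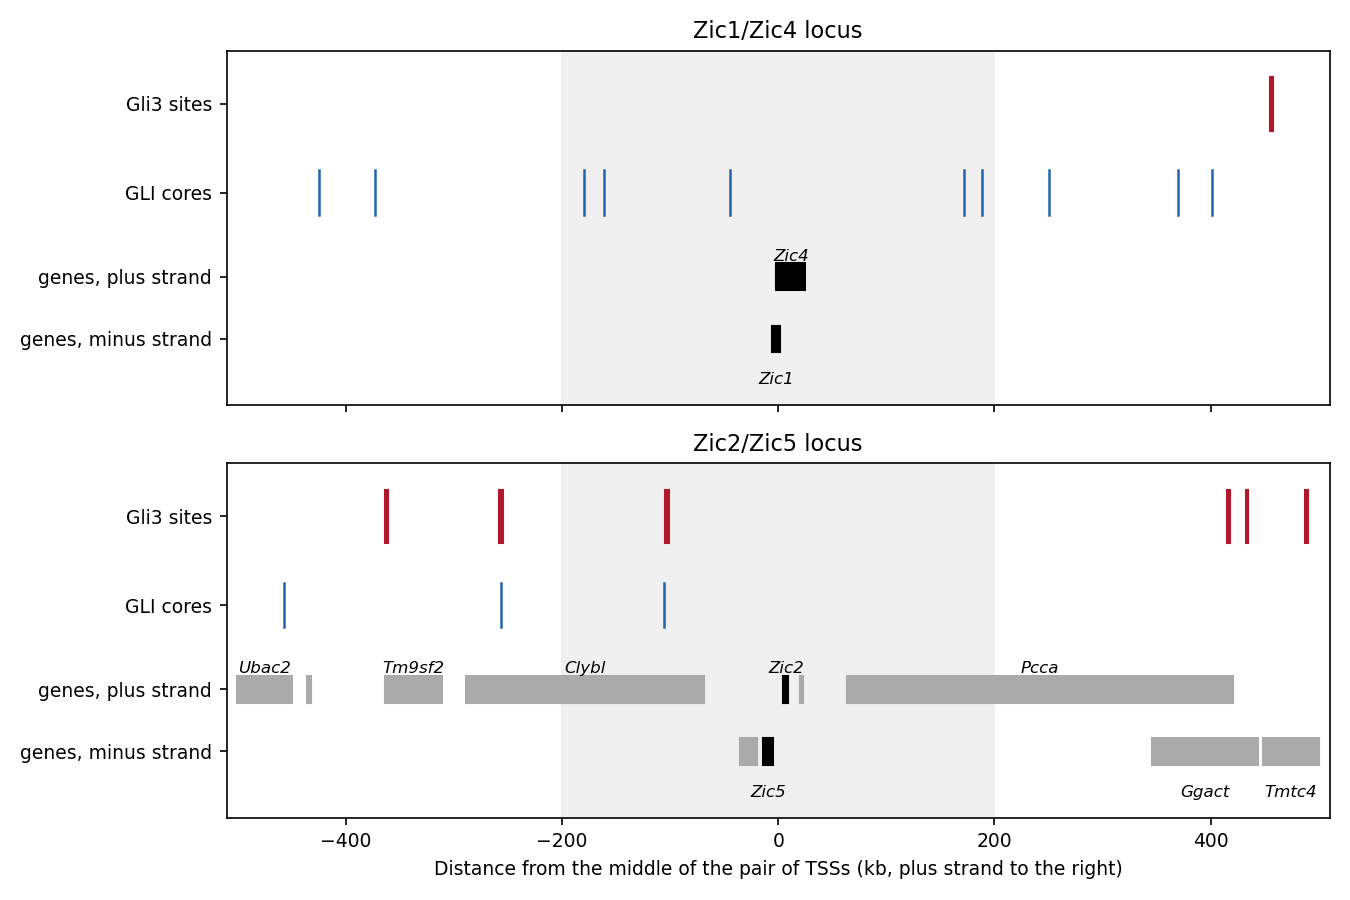
Both Zic loci on a common scale, with the distance from the middle of the pair of TSSs in kb on the x axis and the 200 kb on either side shaded. Red bars are Gli3 sites (narrow ones widened to be visible), blue lines exact GLI cores, black bars Zic genes and grey bars other protein-coding genes, and in the shaded part there is 1 site at Zic2/Zic5 and none at Zic1/Zic4.

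These counts were then compared with those of all protein-coding genes of the annotation, 21938 in number. At least 1 site within 200 kb was found for 53.2% of them, and *Zic2* and *Zic5*, with 1 each, were among these, while *Zic1* and *Zic4*, with 0, were among the remaining 46.8%. Within 100 kb, 36.5% of genes had a site, as did *Zic5* but not *Zic2*. The distance from the TSS to the nearest site had a median of 177 kb. It was longer than that of *Zic5* in 63.9% of genes and longer than that of *Zic2* in 61.7%. For *Zic1* 26.5% of genes were farther from a site, and for *Zic4* 26.4%.

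The sequence composition of the windows differed between the loci. The 200 kb on either side of the *Zic1* TSS had a GC content of 39.1% and were 36.8% repeat-masked, and those around *Zic2* had 43.1% and 32.4%. The medians over all protein-coding genes were 44.1% and 30.7%. Among the 2378 genes whose window was within 1 percentage point of the GC content of *Zic1*, 15.6% had a site within 200 kb, against 47.4% of the 3836 genes matched in this way to *Zic2*. Among the 2233 genes within 2 percentage points of the repeat content of *Zic1*, 44.8% had a site, against 60.2% of the 4589 genes matched in this way to *Zic2*. The number of cores did not follow the same order, as the window of *Zic1* held 5 and that of *Zic2* held 1, with a median of 3. Of genes with 5 cores in the window 65.0% had a site, and of those with 1 core 40.3% had one. The windows of neighboring genes overlap, and GC content, gene density and repeats vary together along chromosomes. Their part in the count of any *Zic* gene was not tested.

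The starts of the *Zic* genes themselves had no site. The midpoint of a site was within 2 kb of the TSS for 6.88% of protein-coding genes. In the 500 bp on either side of the TSS, *Zic2* had a GC content of 73.1% and an observed to expected CpG ratio of 0.918, and *Zic1* had 55.1% and 0.720. Both values met the definition used here for a CpG-rich start, at least 55% GC and a ratio of at least 0.65. Among the 7608 protein-coding genes with such starts, 13.1% had a site within 2 kb and 65.0% had one within 200 kb. *Zic4*, at 53.4% and 0.701, missed this definition by its GC content only, and *Zic5*, at 54.5% and 0.564, missed it by both values.

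The pairs were also set against head-to-head pairs of the annotation. There were 2936 pairs of neighboring protein-coding genes on opposite strands that pointed away from each other, with TSSs up to 20 kb apart, and in 11.6% of them a Gli3 site overlapped the interval between the TSSs. Neither the interval between *Zic5* and *Zic2* nor that between *Zic1* and *Zic4* was overlapped by a site. The TSSs of *Zic5* and *Zic2* point away from each other. Those of *Zic1* and *Zic4* do not, because their 5′ ends overlap, so this share is a looser background for them.

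The related zinc finger genes had from 0 to 4 sites within 200 kb, a range that also held most protein-coding genes. Of all protein-coding genes, 46.8% had 0 sites, 25.5% had 1, 14.997% had 2, 6.59% had 3 and 2.94% had 4. *Gli1*, a target and effector of hedgehog signaling, had 3 sites within 200 kb and the nearest at 1.39 kb. *Gli2*, which encodes the main activator of the pathway, had 4, with the nearest at 19.3 kb. *Glis1*, *Glis2* and *Glis3*, which encode Gli-similar proteins, had 2, 1 and 1, with the nearest at 67.002 kb, 35.03 kb and 126.651 kb. *Gli3* itself had 0 and lay in an interval of 8.80 Mb without a site. Of the 4091 intervals between neighboring sites 0.269% were wider, and 2.14% of protein-coding genes were farther from a site than *Gli3*. In the order of the distance to the nearest site, *Zic5* and *Zic2* were between *Glis1* and *Glis3*, and *Zic1* and *Zic4* were between *Glis3* and *Gli3*. *Zic2* and *Zic5* share their site, as *Zic1* and *Zic4* share theirs, so that the 4 genes give 2 independent positions.

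**Figure D3:**
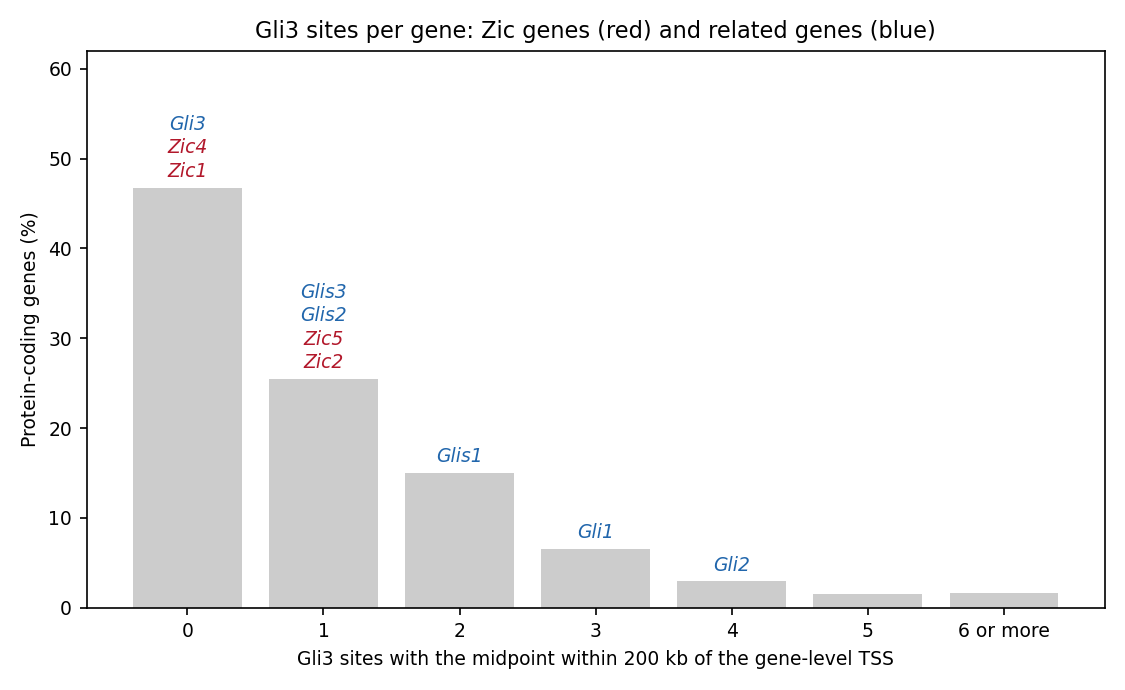
Number of Gli3 sites within 200 kb of the TSS on the x axis and percent of all protein-coding genes on the y axis, with the Zic genes in red and related genes in blue above the bar of their count. Zic1 and Zic4 stand with 46.8% of genes at 0, and Zic2 and Zic5 at 1.

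**Figure D4:**
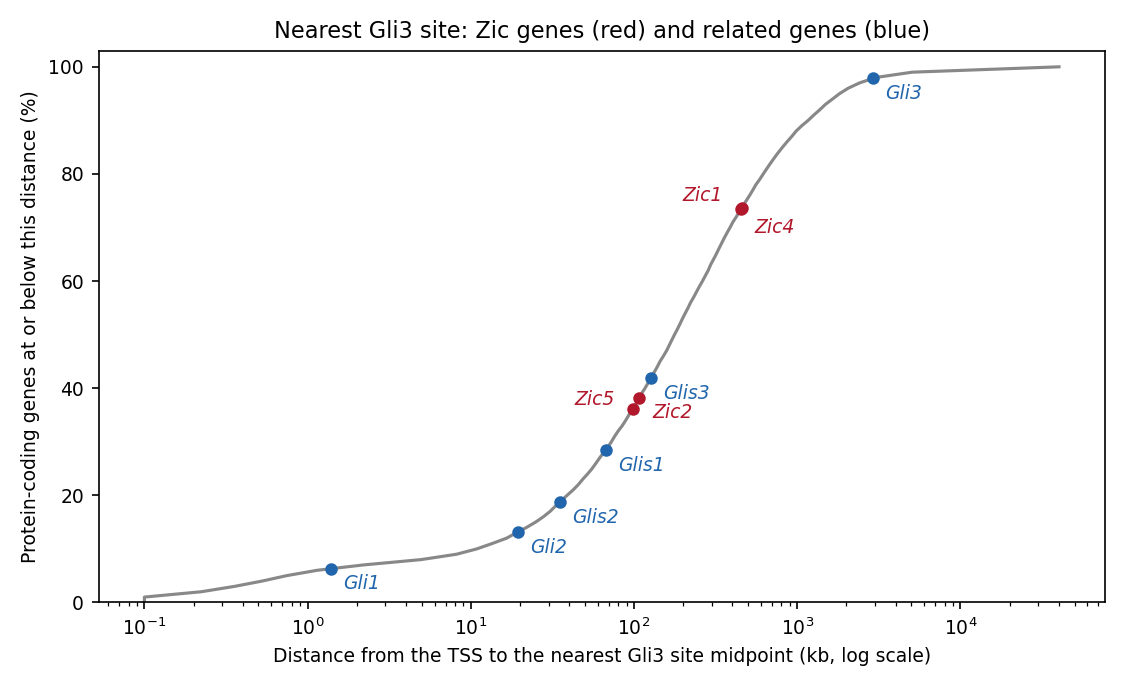
Cumulative percent of protein-coding genes on the y axis by distance from the TSS to the nearest Gli3 site in kb on a logarithmic x axis, in percentiles, with distances below 0.1 kb drawn at 0.1 kb. Zic5 and Zic2, at 98.2 and 108 kb, are below the median of 177 kb, and Zic1 and Zic4, at 453 and 457 kb, are above it.

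Genes with exactly 1 site within 200 kb, like *Zic2* and *Zic5*, were common, with 5587 in all (25.5% of protein-coding genes). In those of them with the shortest distance, *Tmem168*, *Smchd1*, *Dbi*, *Cat* and *Wdr78*, the midpoint of the site was 2 to 7 bp from the TSS.

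No other protein-coding gene had its TSS within 200 kb of *Zic1* or *Zic4*, where 9 further genes are annotated, among them the long noncoding RNA genes *Gm28652* and *Gm29478*. Around *Zic2* and *Zic5* 9 further genes have their TSS, and 3 of them are annotated as protein-coding, *Gm5089*, *Gm10837* and *Pcca*. None of these had a site midpoint within 2 kb of its gene-level TSS.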

How the data were processed

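Wild-type cortex at embryonic day 15 was the source of 3 Gli3 ChIP libraries and 3 input libraries. Per the submitters' processing notes, the authors filtered repeats and used Bowtie2 to map 85 bases of each read end against mm10. The paper's methods do not name these steps. An irreproducible discovery rate (IDR) analysis over the replicates gave the optimal set. SAMtools and MACS2 are also named in the submitters' processing notes. Versions and thresholds are not given in the sources used here. The deposited list holds positions only, numbered 1 to 4114 without gaps, so depth is unknown and precision between replicates cannot be given.

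Starts were converted to 1-based coordinates. Genes and TSSs came from GENCODE M21 and sequence from GRCm38.p6, whose chromosomes are those of mm10. The 15 sites on scaffolds were left out of sequence counts. The gene-level TSS is the 5′ end of the gene record. No test was made, and shares over all genes or sites are given as background. Wilson intervals at 95% were computed for these shares as the measure of a changed value, and they cover counting error only. The search was tested on simulated data, where it recovered 300 of 300 planted GLI cores.

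The genes and motifs were chosen with earlier results of these data known. The genes named were the *Zic* genes, 6 related genes, genes at the sites or with a start in the windows, and 5 genes with the same count as *Zic2*. An item that this rule covers is not reported here. Sequence shared between the sites of the loci could not be compared, since 1 locus had no site, and proteins were not analysed here. Motifs were matched exactly on both strands unless a mismatch is stated. Alternatives covered the window, the assignment, the TSS, joined and wide sites, the promoter definition, the motif match and the pair distance. Python 3.11.15, numpy 2.4.6, scipy 1.17.1 and matplotlib 3.10.9 were used.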

Additional observations from a re-analysis of the deposited data

How the results depend on the processing

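Of 37 alternatives, 24 left their value the same and 13 moved it. With a window of 500 kb the count of sites was 1 at *Zic1*/*Zic4* and 6 at *Zic2*/*Zic5*, and with 50 kb it was 0 at *Zic2*/*Zic5*. With 1 mismatch allowed, 1 site at the *Zic* loci held a GLI match, as did 64.7% of all sites, and in the central 200 bp 1.68% of all sites held the exact core. The share of genes with at least as many sites as *Zic2* and *Zic5* was 36.5% at 100 kb (*Zic5* alone), 12.2% at 500 kb and 35.5% with wide sites only. The share with as few as *Zic1* and *Zic4* was 76.5% at 50 kb, 63.5% at 100 kb, 42.9% at 500 kb and 64.5% with wide sites only. These shifts follow from the construction of the alternatives. No paired analysis was possible because the replicates were joined in 1 list, and for the same reason no replicate could be left out. The threshold of the peak calling could not be varied, since the list has no scores.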
